A study of Homo sapiens with 6 samples.

Results

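Genes that respond to glucocorticoid hormones were followed in HT1080, an established human fibrosarcoma cell line. The genes are TXNIP, TSC22D3, GLUL, FKBP5, SGK1, KLF9, PER1 and DUSP1, 8 genes in all. They were chosen by symbol with measured values of these same arrays known: TXNIP and GLUL had stood among the largest differences between MT1-MMP siRNA and mock cells. Which further values bore on the choice is not recorded. All probe sets whose only gene symbol in the platform annotation is one of the 8 were taken, which gave 15 of the 22283 probe sets on the array and 7 of the 8 genes. Both probe sets of PER1 carry the symbol of a microRNA gene as well, so PER1 has no value here.

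The study compared 3 groups of 2 arrays of total RNA. Mock cells were transfected with a pGUS vector for GFP alone. The MT1-MMP siRNA cells carried the same vector with an siRNA against MT1-MMP, the membrane-anchored collagenase encoded by MMP14, and the alpha3 siRNA cells carried it with an siRNA against integrin alpha3, the laminin receptor subunit encoded by ITGA3. All 3 groups therefore shared the vector and GFP, and the labels name no hormone treatment and do not say whether a group's 2 arrays stand for separate cultures, so each p-value covers only array-to-array spread, which may be technical. Each value is a signal, the authors' brightness of a probe set on a linear scale, and a log2 fold change is the difference of group means of log2(signal + 32).

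Glucocorticoids act through the receptor NR3C1, which waits in the cytoplasm in a complex with heat shock protein 90 and its co-chaperones, moves to the nucleus when it binds hormone, and raises or lowers the transcription of many genes. TSC22D3 (also called GILZ), FKBP5, PER1, KLF9, SGK1 and DUSP1 are among the genes it induces in many cell types, and TXNIP and GLUL also respond to it in some. Several of them answer to other inputs as well: TXNIP to glucose through the MondoA factor MLXIP and its partner MLX, TSC22D3, KLF9 and TXNIP to FOXO factors, and DUSP1 and SGK1 to serum and stress.

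The promoter sequences of the genes with the largest differences are shown first, because binding sites of these factors can be read from the letters. They come from RefSeq (GRCh38.p14) and run from 250 bases before to 50 bases after an annotated transcription start, 5′ to 3′ on the strand of the gene. Of the windows given for each gene, the one with the most motif matches is printed. Capitals mark exact matches, on either strand, to the FOXO site (TGTTTAC), the CCAAT box (CCAAT) or the TATA box (TATAAA). All 3 windows lie on the minus strand: TXNIP at chr1:145996530-145996829, TSC22D3 at chrX:107717013-107717312 and GLUL at chr1:182391741-182392040.
TXNIP: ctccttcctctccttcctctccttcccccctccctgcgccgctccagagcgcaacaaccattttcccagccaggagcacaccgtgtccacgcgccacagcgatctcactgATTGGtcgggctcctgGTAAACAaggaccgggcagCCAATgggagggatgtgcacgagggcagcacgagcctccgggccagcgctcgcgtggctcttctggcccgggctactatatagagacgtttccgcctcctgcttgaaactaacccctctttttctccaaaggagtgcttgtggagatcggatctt
TSC22D3: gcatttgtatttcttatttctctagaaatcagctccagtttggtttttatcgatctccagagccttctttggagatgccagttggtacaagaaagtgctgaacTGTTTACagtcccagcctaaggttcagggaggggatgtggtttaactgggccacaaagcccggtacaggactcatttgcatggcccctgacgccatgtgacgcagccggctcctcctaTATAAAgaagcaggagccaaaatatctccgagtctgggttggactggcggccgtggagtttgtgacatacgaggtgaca
GLUL: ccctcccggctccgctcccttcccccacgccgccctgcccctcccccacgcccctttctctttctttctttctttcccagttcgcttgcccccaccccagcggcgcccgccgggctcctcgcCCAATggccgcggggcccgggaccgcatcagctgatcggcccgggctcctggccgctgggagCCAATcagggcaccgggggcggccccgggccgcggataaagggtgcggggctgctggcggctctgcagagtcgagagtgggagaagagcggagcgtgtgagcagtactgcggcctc

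The TXNIP window held a FOXO site on the opposite strand at -124 to -118 from the start, between 2 CCAAT boxes at -140 to -136 and -105 to -101. The TSC22D3 window held a FOXO site at -147 to -141 and a TATA box at -29 to -24. The GLUL window held 2 CCAAT boxes, at -128 to -124 and -66 to -62. FOXO sites occurred in 3.42% of the 35116 RefSeq windows of this length, CCAAT boxes in 34.6% and TATA boxes in 11.5%. The printed windows were picked for their matches, so these shares are no measure of an excess in them.

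Over all 16 windows of the 8 genes, a FOXO site was found for 2 genes (TXNIP and TSC22D3), a CCAAT box for 6 and a TATA box for 3 (TSC22D3, SGK1 and DUSP1). The full glucocorticoid response element, AGAACA and TGTTCT with 3 bases between them, was in none of the 16 windows and in 0.00285% of all windows. The single hexamer TGTTCT was in a window of FKBP5 and a window of SGK1, and in 14.8% of all windows. The E-box CACGTG was found for FKBP5, PER1 and DUSP1 (7.26% of all windows). A carbohydrate response element of 2 exact E-boxes 5 bases apart was found for none of the 8 (0.0057%). Imperfect copies of it were not searched for. The printed TXNIP window reads cacgag, 5 other bases and cacgag again, which is no exact match and is left unmarked. DUSP1 alone of the 8 had the cAMP response element TGACGTCA (1.85% of all windows). A match is a description of the letters in a short window, and nothing here measures binding.

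The arrays were alike in overall level, with median signals from 72.9 to 83.1. Correlations between arrays across the 8045 genes analysed lay between 0.900 and 0.970, where genes are not independent replicates. The highest, 0.970, was between mock replicate 1 and alpha3 siRNA replicate 2. It exceeded those within mock (0.964), within MT1-MMP siRNA (0.965) and within alpha3 siRNA (0.952). Each siRNA target had its lowest signals under its own siRNA. MMP14 had 1971 and 3064 in mock cells, 812 and 717 under MT1-MMP siRNA and 999 and 1804 under alpha3 siRNA. ITGA3 had 1139 and 1290, 1481 and 1634, and 148 and 347. Neither passed the limma threshold under its own siRNA, with MMP14 at -1.65 (adjusted p = 0.139) and ITGA3 at -2.25 (adjusted p = 0.136) against mock. MMP14 was also lower without overlap under alpha3 siRNA, at -0.86 (limma adjusted p = 0.851). Mesenchymal markers were present, 10 of 10 above the filter on dim probe sets (mean log2 value above the 40th percentile), with summed signals of 20294 to 24431 in mock cells, 31068 to 40744 under MT1-MMP siRNA and 19719 to 24467 under alpha3 siRNA. VIM and FN1 made up most of these sums. Of 9 epithelial markers 3 were above the filter, with sums of 3122 to 3455, 2415 to 2824 and 4337 to 4745. KRT18 (1807 to 3219.5) and KRT8 (430.6 to 1456.9) made up most of these sums. CDH1, dim throughout, went the other way under alpha3 siRNA, with 28.4 and 29.3 in mock cells against 9.3 and 4.4. The sums therefore describe a few bright genes and not the lists. Of 8 endothelial markers 1 was above it (PECAM1, 48.6 to 108, with CDH5 at or under 9.4). Of 7 leukocyte markers 2 were above it, CSF1R (69.1 to 142) and CD3E (61.5 to 107), with PTPRC at or under 21.9, and of 3 erythroid markers 1, HBB (88.5 to 158). The 18 spiked hybridisation controls stood higher for MT1-MMP siRNA, at 2.30 and 1.29 times the mock mean, against 0.927 and 1.07 in mock cells and 0.812 and 0.841 under alpha3 siRNA. Their part in the differences described next was not tested.

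With MT1-MMP siRNA against mock, the genes lay higher together. All 15 probe sets had a higher mean log2 signal, and of the 13 above the filter 11 did not overlap between the groups. Several of the 13 share a gene, and the share over all probe sets was not computed. Some were under the filter's signal of 47.5 on both mock arrays and passed only through siRNA arrays. These were FKBP5 (29.3 and 43.0 in mock cells) and GLUL (8.7 and 35.9 on its brightest probe set, 6.9 and 2.2 on another), so their separation is partly built in. For the brightest probe set of each gene the median log2 fold change was 1.50 over 7 genes, with a range of 0.15 (SGK1) to 3.20 (GLUL), against a median of 0.0024 over all 8045 genes. Of the 7 genes, 6 were higher without overlap, where 24.6% of all genes were. Since the genes were chosen with this contrast known, these values are a description and no test is attached. With limma 0 of the 8045 genes (0%) had an adjusted p under 0.05, while 6.76% were higher and 7.66% lower at an unadjusted p under 0.05.

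TXNIP, which binds and inhibits thioredoxin and limits glucose uptake, had signals of 198 and 537 in mock cells, 2323 and 2027 under MT1-MMP siRNA, and 705 and 122 under alpha3 siRNA. Both MT1-MMP siRNA arrays lay well above the other 4, whose order mixed the mock and alpha3 groups. The group means were 367 ± 240 (SD, n = 2) for mock and 2175 ± 210 (SD, n = 2) for MT1-MMP siRNA, which is 5.92 times the mock mean and 2.61 (SE 0.66) as a log2 fold change. Its other 2 probe sets gave the same picture, from 258 and 339 to 1561 and 1152 on one (log2 fold change 2.06) and from 87.7 and 144 to 1400 and 1173 on the other (3.18).

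TSC22D3, a leucine zipper protein that restrains inflammatory transcription factors, had signals of 129 and 255 in mock cells, 738 and 566 under MT1-MMP siRNA, and 96.8 and 111 under alpha3 siRNA. The 3 groups did not overlap: MT1-MMP siRNA was high, mock intermediate and alpha3 siRNA low. Means were 192 ± 89.0 (SD, n = 2) for mock, 652 ± 121 (SD, n = 2) for MT1-MMP siRNA and 104 ± 9.83 (SD, n = 2) for alpha3 siRNA. The log2 fold change of MT1-MMP siRNA against mock was 1.66 (SE 0.29), and leaving out mock replicate 1 or 2 gave 1.24 or 2.08. The second probe set of TSC22D3 lay below the filter, with 32.3 and 7.2 in mock cells and 123 and 16.0 under MT1-MMP siRNA, and its groups overlapped.

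GLUL, the glutamine synthetase that makes glutamine from glutamate and ammonia, had a log2 fold change of 3.20 (SE 0.93) in this comparison. That exceeded the 2.61 of TXNIP, but GLUL was below TXNIP with an offset of 100 (2.23 against 2.38), with the mean of the probe sets (2.29 against 2.62) and without MT1-MMP siRNA replicate 1 (2.06 against 2.51). Both mock signals of GLUL lay under the signal of 47.5 that marks the filter. Its signals were 8.7 and 35.9 in mock cells, 1035 and 187 under MT1-MMP siRNA, and 18.8 and 333 under alpha3 siRNA. The arrays within each group stood far apart: the 2 MT1-MMP siRNA arrays differed by 2.28 on the log2 scale and the 2 alpha3 siRNA arrays by 2.85, against medians over all genes of 0.23 and 0.27. The second alpha3 siRNA array lay above the second MT1-MMP siRNA array, so these groups overlapped, while both MT1-MMP siRNA arrays lay above both mock arrays. Leaving out replicate 1 or 2 of MT1-MMP siRNA gave a log2 fold change against mock of 2.06 or 4.34.

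The other GLUL probe sets shared the top of this order. One had 32.9 and 57.4 in mock cells, 415 and 82.5 under MT1-MMP siRNA, and 41.3 and 155 under alpha3 siRNA. The third had 6.9 and 2.2, 254 and 52.1, and 22.6 and 129. On all 3 the first MT1-MMP siRNA array was highest and the second alpha3 siRNA array came next.

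KLF9, a zinc finger repressor, had 101 and 160 in mock cells, 586 and 296 under MT1-MMP siRNA, and 150 and 64.0 under alpha3 siRNA on its brightest probe set. MT1-MMP siRNA was above the other groups, which overlapped with each other, and the log2 fold change against mock was 1.50 (SE 0.39). A second probe set went from 45.1 and 102 to 522 and 290 (2.06). The third had 54.5 and 47.1 in mock cells and 99.7 and 48.7 under MT1-MMP siRNA, with overlapping groups and a log2 fold change of 0.32, so the differences on the KLF9 probe sets were unequal.

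DUSP1, the phosphatase that switches off MAP kinases, had 633 and 892 in mock cells, 1896 and 1083 under MT1-MMP siRNA, and 640 and 539 under alpha3 siRNA. MT1-MMP siRNA lay above both other groups, with a log2 fold change against mock of 0.90 (SE 0.29) that became 0.51 or 1.30 on leaving out replicate 1 or 2 of MT1-MMP siRNA. Its second probe set was below the filter, between 6.9 and 107 on all arrays. FKBP5, the immunophilin that holds the receptor in a state of low hormone affinity, was dim, with 29.3 and 43.0 in mock cells, 86.8 and 74.2 under MT1-MMP siRNA, and 38.0 and 54.8 under alpha3 siRNA. Its MT1-MMP siRNA arrays were the highest, with a mean 2.23 times that of mock (log2 fold change 0.73, SE 0.26). For a gene this dim the offset matters: the log2 fold change was 1.15 with an offset of 1 and 0.41 with 100.

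SGK1, a kinase of ion transport and survival signalling, departed from the others. It had 880 and 931 in mock cells, 1317 and 773 under MT1-MMP siRNA, and 1541 and 1282 under alpha3 siRNA. The MT1-MMP siRNA arrays lay on either side of the mock arrays, with a log2 fold change of 0.15 (SE 0.26) that turned to -0.22 without replicate 1 of that group, while both alpha3 siRNA arrays lay above mock.

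**Figure D1:**
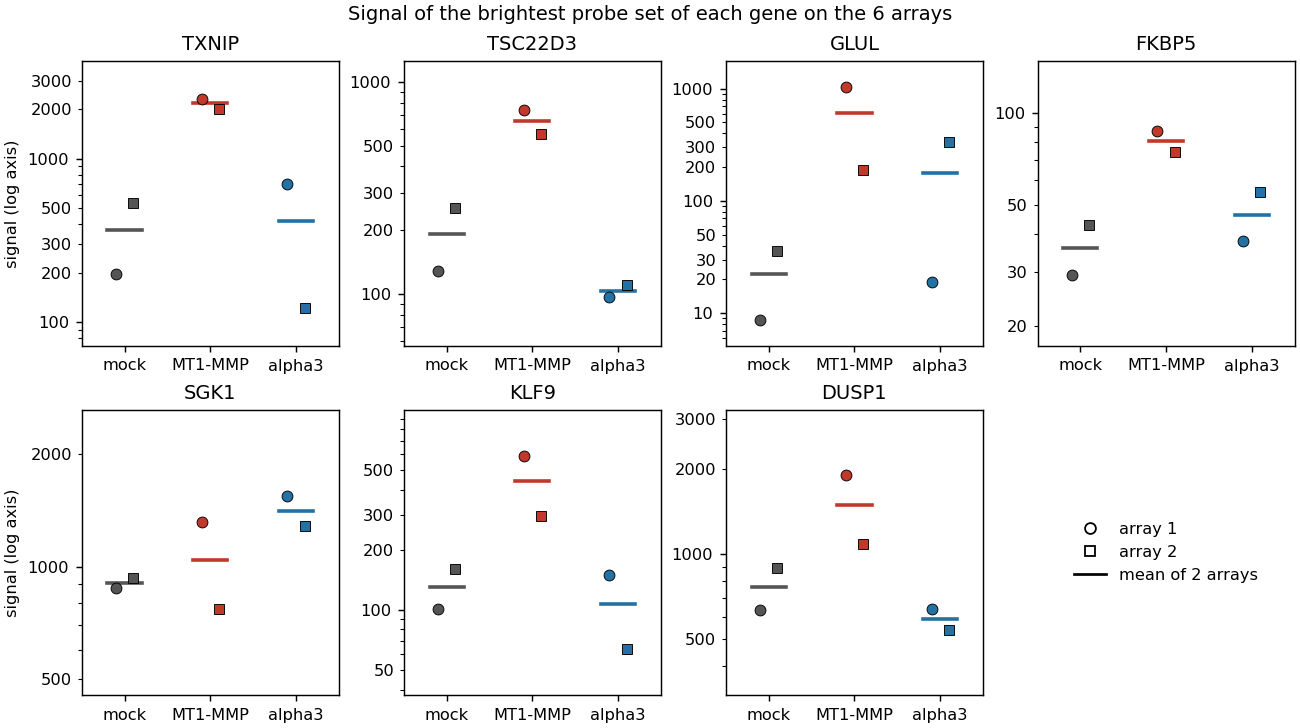
Signal (log axis) of the brightest probe set of 7 genes on each array, with circles for array 1, squares for array 2 and bars for the mean of 2 arrays; the axis differs between panels. The MT1-MMP siRNA arrays lie above both other groups for TXNIP, TSC22D3, FKBP5, KLF9 and DUSP1, the GLUL arrays of MT1-MMP and alpha3 siRNA overlap, and SGK1 has its highest mean under alpha3 siRNA.

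Beside the difference between groups there was an order within them. On the MT1-MMP siRNA arrays all 15 probe sets were brighter on replicate 1 than on replicate 2, and so were 48.5% of all genes. On the mock arrays 3 of the 15 probe sets and none of the 7 genes, each by its brightest probe set, were brighter on replicate 1, where 50.3% of all genes were. The spiked controls were also brighter on replicate 1 of MT1-MMP siRNA (2.30 against 1.29) and on replicate 2 of mock (1.07 against 0.927), and their part in this order was not tested. With alpha3 siRNA 4 of the 7 genes were brighter on replicate 1. The gaps within a pair were largest for TXNIP, at 1.31 between the mock arrays and 2.26 between the alpha3 siRNA arrays, and for GLUL, while TXNIP on the MT1-MMP siRNA arrays differed by 0.19.

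Alpha3 siRNA against mock is not known to have been used to choose the genes, and it was tested, though it shares the mock arrays with the comparison in which TXNIP and GLUL stood out. None of the 7 genes passed the threshold over 8045 genes, where 0.0249% of all genes did (limma, 2 genes, both higher). The median log2 fold change of the 7 was -0.10, against -0.014 over all genes, with 3 genes higher and 4 lower. One gene was higher without overlap (SGK1, where 16.4% of all genes were) and 1 was lower without overlap (TSC22D3, where 18.0% were). The same 2 genes were the only members with an unadjusted p under 0.05 in limma, a level that 2.51% of all genes reached upward and 3.22% downward.

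For SGK1 the log2 fold change under alpha3 siRNA was 0.62 (95% interval 0.03 to 1.21, limma adjusted p = 0.855), from a mock mean of 905 ± 36.1 (SD, n = 2) to 1412 ± 183 (SD, n = 2). For TSC22D3 it was -0.66 (interval -1.33 to -0.00023, limma adjusted p = 0.855). Leaving out mock replicate 1 or 2 gave TSC22D3 values of -1.08 or -0.25. The remaining genes had wide intervals that held 0: TXNIP -0.10 (-1.62 to 1.42), GLUL 1.37 (-0.76 to 3.51), FKBP5 0.20 (-0.39 to 0.79), KLF9 -0.27 (-1.17 to 0.62) and DUSP1 -0.34 (-1.0 to 0.32), with limma adjusted p-values from 0.901 to 0.990.

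The second alpha3 siRNA array set several of these signs. Without it the log2 fold change of TXNIP was 1.03, of KLF9 0.18 and of GLUL -0.049, each on the other side of 0 from the value with both arrays. TXNIP also turned to 0.55 without mock replicate 2. GLUL had 2.80 without alpha3 siRNA replicate 1, so its mean under alpha3 siRNA rests on 1 bright array.

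Between the siRNAs the same arrays of MT1-MMP siRNA enter, so the values are again a description. The median log2 fold change of MT1-MMP siRNA against alpha3 siRNA was 1.77 over the 7 genes, against 0.022 over all genes, and 0.85 without MT1-MMP siRNA replicate 1. Of the 7 genes 5 were higher without overlap, where 28.0% of all genes were. TXNIP was at 2.71, TSC22D3 at 2.32, GLUL at 1.83, KLF9 at 1.77, DUSP1 at 1.24 and FKBP5 at 0.53, while SGK1 was at -0.47. Leaving out replicate 1 or 2 of MT1-MMP siRNA gave -0.84 or -0.092 for SGK1 and 0.85 or 1.64 for DUSP1, and an offset of 1 or 100 gave 0.80 or 0.30 for FKBP5. TXNIP moved between 1.58 without alpha3 siRNA replicate 2 and 3.84 without replicate 1. GLUL moved between 0.40 without alpha3 siRNA replicate 1 and 3.25 without replicate 2. TSC22D3 stayed between 2.14 and 2.51 on leaving out 1 array.

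**Figure D2:**
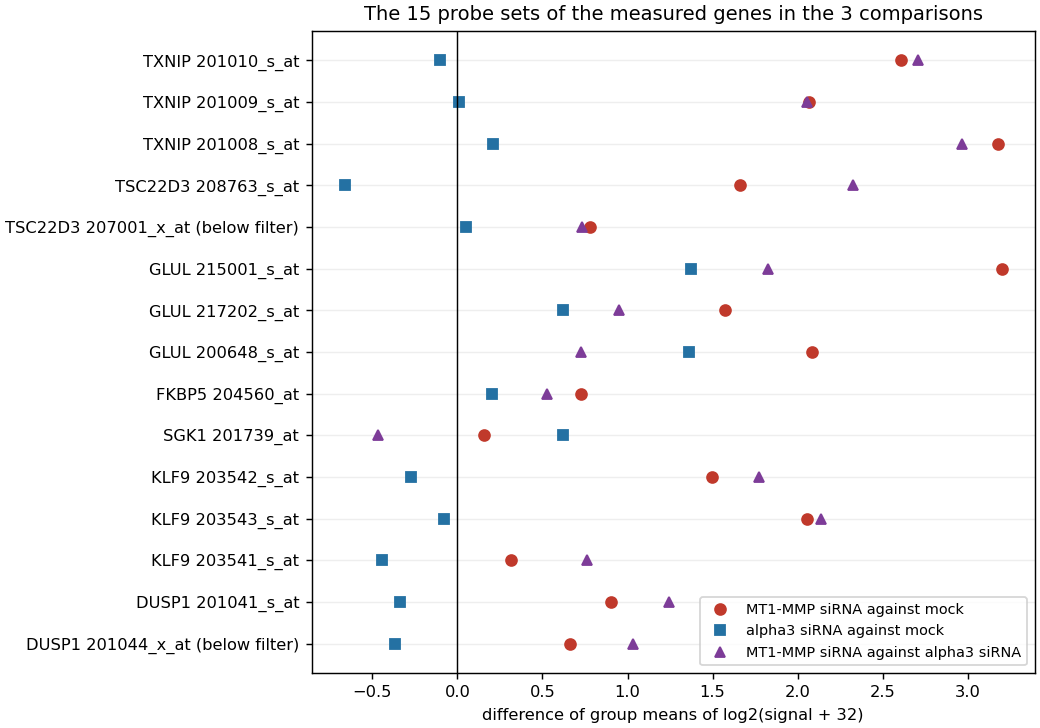
Log2 fold changes of the 15 probe sets in the 3 comparisons (x axis, difference of group means of log2(signal + 32)). All 15 lie above 0 for MT1-MMP siRNA against mock, the contrast known when the genes were chosen. For alpha3 siRNA against mock 8 lie above and 7 below.

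The genes whose pattern over the 6 arrays was nearest to TXNIP, TSC22D3 and GLUL were found by the mean absolute difference of log2 values, each gene centred on its own mean. Nearest to TXNIP were IFITM1 (0.32), FN1 (0.42), SNX10 (0.45), HLA-C (0.48) and CEMIP (0.52), where the median over all genes was 1.27. IFITM1, an interferon-induced membrane protein, had 82.4 and 317 in mock cells, 830 and 600 under MT1-MMP siRNA, and 289 and 61.1 under alpha3 siRNA. FN1, the matrix protein fibronectin, had 1869 and 5529, 12635 and 9354, and 5237 and 1882. All 5 shared with TXNIP the low first mock array and the low second alpha3 siRNA array.

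Nearest to TSC22D3 were the urea transporter SLC14A1 (0.18), the neuronal serine protease inhibitor SERPINI1 (0.21), the tetraspanin TSPAN9 (0.21), the myo-inositol transporter SLC5A3 (0.21) and the desaturase SCD (0.23), where the median over all genes was 0.92. SLC14A1 had 76.7 and 123 in mock cells, 499 and 413 under MT1-MMP siRNA, and 63.7 and 104 under alpha3 siRNA. SCD had 703 and 1429, 3035 and 1924, and 602 and 452. Among the members themselves KLF9 (0.32) and DUSP1 (0.42) were closest to TSC22D3, and GLUL was the farthest (1.17).

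No gene came close to GLUL. The nearest was HSD11B1 (0.87), the enzyme that regenerates active cortisol from cortisone inside cells, then CCN2 (0.89), PLAT (0.90), RAB4A (0.95) and SERPINE2 (0.95), against a median of 1.54 over all genes. HSD11B1 had 71.1 and 786 in mock cells, 2022 and 699 under MT1-MMP siRNA, and 298 and 584 under alpha3 siRNA, so the second mock array lay above the second MT1-MMP siRNA array. Its log2 fold change was 2.08 under MT1-MMP siRNA (limma adjusted p = 0.325) and 0.63 under alpha3 siRNA (adjusted p = 0.938). These likenesses are over 6 arrays and carry no test.

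**Figure D3:**
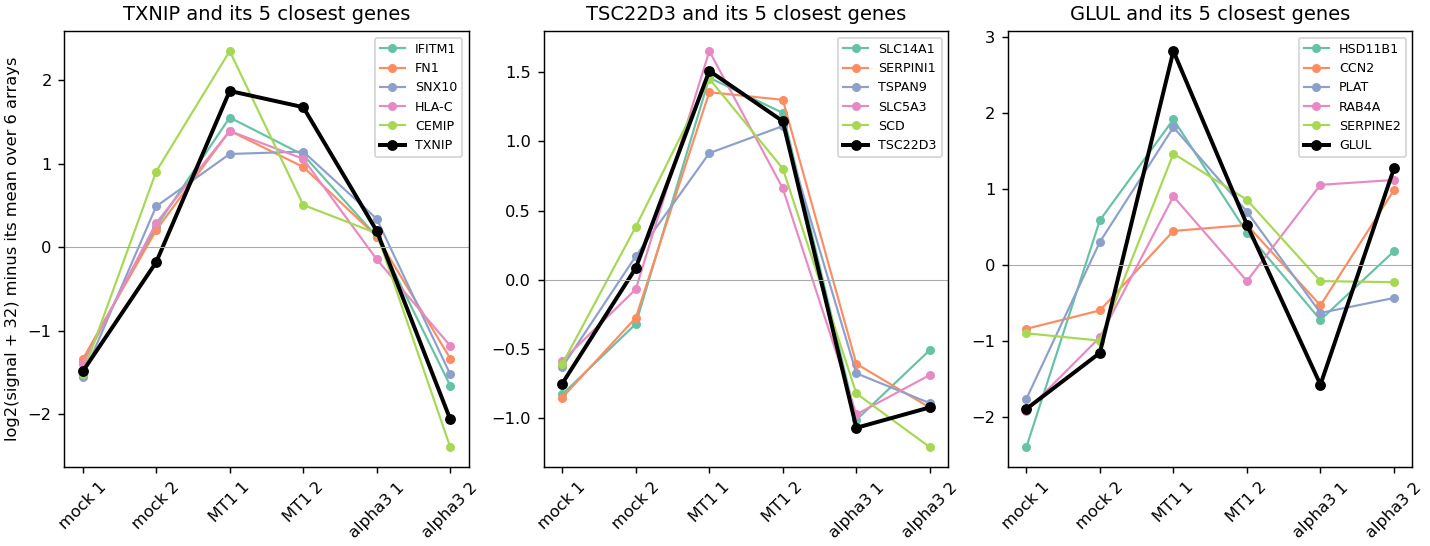
Log2 signal on each of the 6 arrays, centred on the gene's mean, for TXNIP, TSC22D3 and GLUL (black) and the 5 genes nearest to each; lines join the arrays only to guide the eye. The genes near TXNIP are low on mock 1 and alpha3 2, those near TSC22D3 are highest on both MT1 arrays, and those near GLUL differ from it by more than in the other panels.

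The lists of other pathway genes held 166 genes above the filter, and under MT1-MMP siRNA against mock 0 passed the threshold in limma, as for all genes. At an unadjusted p under 0.05 there were 16 higher and 13 lower of the 166, where 6.76% of all genes were higher and 7.66% lower. The median log2 fold change of the 166 was 0.015. With alpha3 siRNA against mock 0 passed as well, with 6 higher and 7 lower at the unadjusted level, where 2.51% and 3.22% of all genes were, and a median of 0.0074.

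Other glucocorticoid-induced genes were mixed under MT1-MMP siRNA. Their median log2 fold change was 0.24 over 30 genes, 21 of them above 0, and 6 were higher and 4 lower without overlap, where 24.6% and 25.3% of all genes were. At the unadjusted level 2 were higher, HSD11B1 (2.08) and CITED2 (0.77), and 1 was lower, the interleukin 1 receptor IL1R1 (-1.07); CITED2 and IL1R1 are named after their values were seen. The classical steroid-induced metallothionein MT2A had 14668 and 13828 in mock cells and 21374 and 15229 under MT1-MMP siRNA, and the hormone-induced NFKBIA had 89.8 and 239 against 145 and 110. Both were likewise named after their values were seen, and they stand for the spread within the list. With alpha3 siRNA the median was 0.024, with 15 genes on each side of 0, and RGS2, GADD45B and MAOA were higher at the unadjusted level (1.17, 0.58 and 0.83, limma adjusted p = 0.851 for each, MAOA named after its values were seen).

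The receptor itself, NR3C1, had 905 and 815 in mock cells, 1607 and 1135 under MT1-MMP siRNA, and 796 and 648 under alpha3 siRNA. MT1-MMP siRNA lay above both other groups, with a log2 fold change against mock of 0.63 (SE 0.22, limma adjusted p = 0.266) and a range of -0.11 to 0.63 over 4 probe sets. With alpha3 siRNA it was -0.25 (adjusted p = 0.915). The list of the receptor and its partners had a median of -0.24 under MT1-MMP siRNA over 19 genes, with 15 below 0. Of the 19, 8 were lower without overlap (25.3% of all genes were) and 3 higher (24.6% of all genes). STIP1, the co-chaperone that hands clients from heat shock protein 70 to 90, had 1379 and 1302 in mock cells and 722 and 794 under MT1-MMP siRNA (-0.80, SE 0.18, limma adjusted p = 0.164). At the unadjusted level 5 were lower (7.66% of all genes were) and 1, NR3C1, was higher (6.76% of all genes). With alpha3 siRNA the median of the list was 0.045.

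Around TXNIP, its target thioredoxin (TXN) had 3416 and 2884 in mock cells, 2919 and 3502 under MT1-MMP siRNA, and 2703 and 3236 under alpha3 siRNA. The groups overlapped, with a log2 fold change of 0.026 under MT1-MMP siRNA (limma adjusted p = 0.963), and a second TXN probe set was at 0.65. MLXIP, the glucose-sensing MondoA, was at -0.055 under MT1-MMP siRNA and 0.025 under alpha3 siRNA. Over the 24 genes of the thioredoxin system and glucose sensing the median was -0.052 under MT1-MMP siRNA, with 3 higher and 8 lower without overlap, where 24.6% and 25.3% of all genes were. The peroxiredoxin PRDX2 had 262 and 393 in mock cells and 1045 and 608 under MT1-MMP siRNA (1.23, SE 0.29, limma adjusted p = 0.165), and its 3 probe sets ranged from 0.53 to 1.23. The glucose transporter SLC2A3 had 363 and 463 in mock cells, 838 and 663 under MT1-MMP siRNA and 261 and 160 under alpha3 siRNA. It differed between the siRNAs, by 1.71 (limma adjusted p = 0.0289), with 3 probe sets from 1.71 to 2.00.

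Around GLUL, genes that take up or spend glutamine had a median of 0.033 under MT1-MMP siRNA over 22 genes, with 0 higher and 5 lower at the unadjusted level, where 6.76% and 7.66% of all genes were. The 5 were CTPS1, GOT2 and, named after their values were seen, PPAT, CAD and PFAS. CTPS1, which spends glutamine on CTP synthesis, had 1100 and 925 in mock cells, 345 and 455 under MT1-MMP siRNA, and 947 and 1382 under alpha3 siRNA. It was at -1.28 against mock (SE 0.24, limma adjusted p = 0.139) and differed between the siRNAs by -1.46 (adjusted p = 0.0347). GOT2, the mitochondrial aspartate aminotransferase, had 2339 and 1838 in mock cells against 973 and 1282 (-0.87, adjusted p = 0.165). SLC1A5, the main glutamine importer, was at -0.45 under MT1-MMP siRNA and 0.71 under alpha3 siRNA, with adjusted p-values of 0.612 and 0.863.

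TSC22D1, a relative of TSC22D3, had 960 and 1655 in mock cells, 2548 and 3040 under MT1-MMP siRNA, and 1427 and 717 under alpha3 siRNA. Its MT1-MMP siRNA arrays were the highest, with a log2 fold change against mock of 1.12 (SE 0.35, limma adjusted p = 0.220). TSC22D4 had 125 and 134 in mock cells and 67.0 and 65.8 under alpha3 siRNA (-0.71, SE 0.21, limma adjusted p = 0.844), and TSC22D2 was at -0.38 under MT1-MMP siRNA (-0.76 on a second probe set) and 0.42 under alpha3 siRNA. The 14 TSC22 and KLF genes together had medians of -0.064 with either siRNA against mock, where TSC22D3 and KLF9 were at 1.66 and 1.50 under MT1-MMP siRNA. TSC22D3 and KLF9 were chosen with MT1-MMP siRNA against mock known, so their distance from these relatives is no test.

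Among circadian clock genes, whose family includes PER1, the median was 0.35 under MT1-MMP siRNA over 15 genes, with 7 higher and 3 lower without overlap, against 24.6% and 25.3% of all genes. NFIL3, a transcription repressor of clock output, had 299 and 586 in mock cells, 1240 and 845 under MT1-MMP siRNA, and 388 and 230 under alpha3 siRNA (1.22, SE 0.35, limma adjusted p = 0.210). At the unadjusted level 3 of the 15 were higher and 0 lower, where 6.76% and 7.66% of all genes were. The 3 were NFIL3 and, named after their values were seen, DBP and BHLHE41. DBP had 4.6 and 23.4 in mock cells, 110 and 109 under MT1-MMP siRNA, and 115.7 and 11.6 under alpha3 siRNA. BHLHE41 had 63.8 and 30, 193 and 172, and 119 and 21.6. Both mock signals of DBP lay under the filter's signal, so its separation from mock is partly built in. The first alpha3 siRNA array of DBP lay above both MT1-MMP siRNA arrays. PER2, the relative of PER1, was at 0.11 under MT1-MMP siRNA (82.3 and 73.5 against 79.7 and 93.6). NPAS2, a relative of CLOCK that pairs with BMAL1, had 451 and 709 in mock cells, 971 and 610 under MT1-MMP siRNA, and 206 and 248 under alpha3 siRNA. It was higher under MT1-MMP siRNA than under alpha3 siRNA by 1.64 (limma adjusted p = 0.0408), and its 5 probe sets all lay in that direction.

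FOXO targets and regulators had a median of 0.24 under MT1-MMP siRNA over 21 genes, with 8 higher and 1 lower without overlap, against 24.6% and 25.3% of all genes. CDKN1B, the cell cycle inhibitor p27, had 132 and 160 in mock cells, 331 and 358 under MT1-MMP siRNA, and 208 and 125 under alpha3 siRNA (1.08, SE 0.25, limma adjusted p = 0.164). NDRG1, a substrate of SGK1 that is also induced by hypoxia, had 1670 and 3553 in mock cells, 7310 and 4032 under MT1-MMP siRNA, and 1257 and 733 under alpha3 siRNA. It differed between the siRNAs by 2.46 (limma adjusted p = 0.0351). With alpha3 siRNA against mock the list's median was -0.083. GADD45A, a growth arrest and DNA damage gene of this list, had 823 and 892 in mock cells and 1253 and 1341 under alpha3 siRNA (0.58, limma adjusted p = 0.847).

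DUSP relatives and MAP kinases had a median of -0.097 over 15 genes under MT1-MMP siRNA, with 1 higher and 6 lower without overlap (24.6% and 25.3% of all genes). DUSP1, chosen with this contrast known, was at 0.90. DUSP6 lay below the filter, between 4.3 and 30.1 on the 6 arrays. The list of inflammatory genes taken as repressed by glucocorticoids had a median of 0.060 over 10 genes under MT1-MMP siRNA. Of the 10, 3 were higher and 3 lower without overlap (24.6% and 25.3% of all genes). Its genes were set by symbol, and whether glucocorticoids lower each of them in HT1080, PLAT included, was not tested. CXCL8 had 795 and 1647 in mock cells, 505 and 270 under MT1-MMP siRNA, and 101 and 181 under alpha3 siRNA, whereas PLAT and, named after their values were seen, PTGS2 (25.1 and 52.3 against 158 and 75.1) and IL1A (36.7 and 63.0 against 102 and 221) lay higher under MT1-MMP siRNA. CXCL8 was at -1.55 under MT1-MMP siRNA and -2.81 under alpha3 siRNA, with limma adjusted p-values of 0.186 and 0.136, and a second probe set was at -0.82 and -1.61. PLAT, the tissue plasminogen activator, was at 1.99 under MT1-MMP siRNA (adjusted p = 0.220). PTGS2 was dim outside the MT1-MMP siRNA arrays, with 49.5 and 20.5 under alpha3 siRNA, so its place above the filter rests mainly on those arrays. The cytokine IL11 and the stromelysin MMP3 were, like CXCL8, lower without overlap under MT1-MMP siRNA against mock. They were at -0.58 and -0.57 (limma adjusted p = 0.392 and 0.372). For MT1-MMP against alpha3 siRNA they were at -1.44 and -1.11 (adjusted p = 0.0534 and 0.0725), while CXCL8 and PLAT were at 1.26 and 1.79. A second IL11 probe set was at -0.50 between the siRNAs.

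Between the siRNAs 4 of the 166 list genes passed the threshold, where 1.39% of all genes did (limma, 112 genes): SLC2A3, NPAS2 and NDRG1 were higher under MT1-MMP siRNA and CTPS1 lower. None of the 4 is a glucocorticoid-induced gene of the lists. The count was 0 without either MT1-MMP siRNA array and without alpha3 siRNA replicate 2, and 3 without any 1 of the other arrays. The closest in the glucocorticoid-induced list were RGS2 (26.6 and 83.4 in mock cells, 12.6 and 65.7 under MT1-MMP siRNA, 157 and 149 under alpha3 siRNA) and GADD45B, at -1.49 and -0.72 for MT1-MMP against alpha3 siRNA with limma adjusted p-values of 0.0975 and 0.108. The 3 GADD45B probe sets ranged from -1.37 to -0.72.

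**Figure D4:**
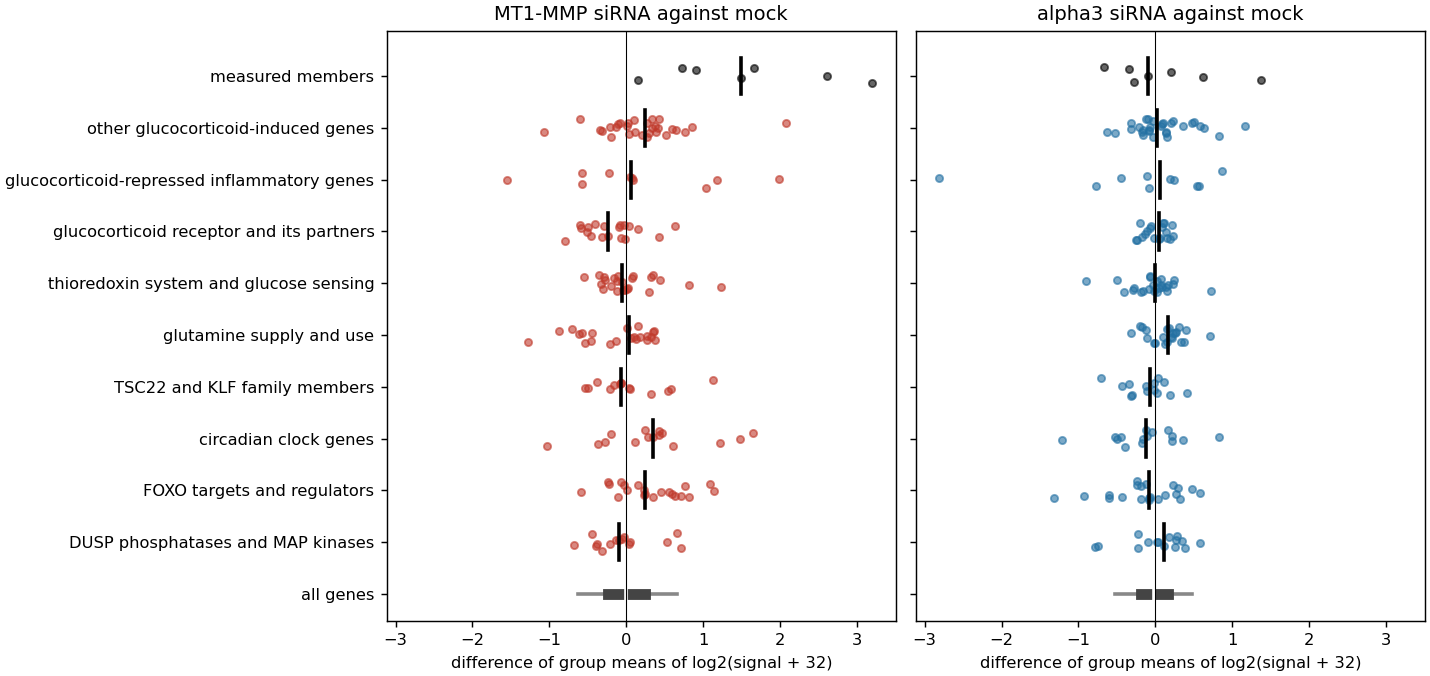
Log2 fold changes of the 7 measured genes (black) and of the genes of each list (coloured points, 1 per gene) with each siRNA against mock; black bars are medians, and the bottom row gives the median, quartiles and 5th to 95th percentiles of all 8045 genes. The 7 genes have a median of 1.50 under MT1-MMP siRNA and -0.10 under alpha3 siRNA, while the list medians lie between -0.24 and 0.35 under MT1-MMP siRNA. The 7 genes were chosen with MT1-MMP siRNA against mock known, so their distance from the lists there is no test.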

How the data were processed

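Total RNA of HT1080 cells was measured on 6 single-channel oligonucleotide arrays, 2 in each of 3 groups. The authors deposited a linear intensity per probe set; their software and background correction are not given here. With the top and bottom 2% left out, each array averaged between 249.5 and 249.9, so the authors had scaled the arrays alike before deposit, and no further normalization was applied. Of the probe sets, 19065 had 1 gene symbol in the platform annotation. Values were floored at 1 and transformed to log2(value + 32), which understates changes of dim genes. Probe sets whose mean passed a filter at the 40th percentile (6.31 on that scale, a signal of 47.5) were kept, and the brightest of each gene gave 8045 genes. The 3 group means were fitted in R 4.3.3 with limma 3.58.1 (lmFit, eBayes with an intensity trend, 3 residual and 5.35 prior degrees of freedom). The threshold was 0.05 after Benjamini-Hochberg adjustment over all genes. Each SE belongs to a log2 fold change, and "unadjusted" refers to the same limma test. The precision is limited by the 2 arrays of a group: an exact permutation test of 2 against 2 cannot go below 0.333.

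Simulated data for alpha3 siRNA against mock (8045 genes, 200 of them changed, 20 draws) tested the fit, which recovered 56.8% of genes changed by 1 and 99.5% of those changed by 2 on the log2 scale, and 7.49% of its calls were false. The noise was normal and independent, and the changed genes were drawn at random. These rates are averages over genes and do not hold for genes as variable as TXNIP (SE 0.66) and GLUL (SE 0.93), whose own recovery was not computed. They also depend on the 200 changed genes, whereas the data gave 2 calls in this contrast. ITGA3, the target of the siRNA, was at -2.25 (SE 0.32) and was not called (limma adjusted p = 0.136). The rates therefore do not carry over to the data, and 0 members called does not exclude changes of 1 or 2.

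The members and lists were chosen with earlier results of these data known. Genes were named by rule: all members, the 5 genes nearest in pattern to TXNIP, TSC22D3 and GLUL, list genes past the threshold or, where a list had none, at most 2 whose groups did not overlap and whose unadjusted p was under 0.01, and MMP14, ITGA3, NR3C1, TXN, ARRDC4, MLXIP, SLC1A5, PER2, TSC22D1 and DUSP6. ARRDC4 has no probe set of a single symbol and is not analysed here. Promoters are RefSeq windows, matched by symbol for 8 of 8 genes. Figures were drawn with matplotlib 3.10.9.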

Additional observations from a re-analysis of the deposited data

How the results depend on the processing

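Other settings tried were 2 scalings (quantile, and an equal 75th percentile), an offset of 1 or 100, no filter or a stricter one at the 60th percentile, probe sets averaged by gene or fitted singly, no intensity trend, fits of only the 2 groups compared, the replicate number as a block, and leaving out each array. These made 17 settings, of which 11 were other than leaving out an array. Over those 11 the median of the members with MT1-MMP siRNA against mock ranged from 1.19 to 1.71. On leaving out 1 array it ranged from 1.04 to 1.84. The choice of the genes bears on its sign, and the trend, the block, fits of 2 groups and arrays of the third group cannot move it. Nor can dropping the filter or fitting probe sets singly, since the brightest probe set of each gene was still taken. In all 17, 0 members were called with alpha3 siRNA against mock. No list gene was called against mock with either siRNA under any of them. GLUL and FKBP5 fell below the filter at the 60th percentile and have no value there.

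With alpha3 siRNA against mock, the log2 fold change of TXNIP turned to 0.040 with the mean of its probe sets. On leaving out 1 array TXNIP ran from -1.23 to 1.03, GLUL from -0.049 to 2.80, KLF9 from -0.73 to 0.18, and the median of the members from -0.54 to 0.35. For MT1-MMP siRNA against alpha3 siRNA the median of the members was 1.24 with the mean of the probe sets and 0.85 to 2.23 on leaving out 1 array. The list genes called between the siRNAs numbered 4, against 0 with no filter, 7 with a filter at the 60th percentile, 2 without the intensity trend and 0 to 3 on leaving out 1 array. The causes were not tested. With 1 array left out the fit has fewer degrees of freedom.

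The arrays share replicate numbers but the labels do not say that a number marks a shared culture. Deviations of same-numbered arrays correlated at -0.18 for mock with either siRNA and 0.13 between the siRNAs. With the replicate number as a block, 0 members were called with alpha3 siRNA against mock and 4 list genes were called between the siRNAs. With 2 arrays in every group the block cannot move a difference of group means, so the medians of the members (1.50, -0.10 and 1.77) say nothing about it.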
